A study of Mus musculus with 11 samples.

Results

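The 9 genes described here, *Nr2f1*, *Nr2f2*, *Prox1*, *Sp8*, *Sp9*, *Gsx1*, *Gsx2*, *Ebf1* and *Meis2*, encode transcription factors used to follow cells of the caudal and lateral ganglionic eminences (CGE and LGE). They were chosen by name, 9 of the 21755 protein-coding genes annotated on the analysed chromosomes, and each was read as its gene body with 10 kb either side, called its window. The 11 samples are wild-type C57BL/6J mouse embryonic forebrain, with 2 from the medial ganglionic eminence (MGE), 3 from CGE, 3 from LGE and 3 from cortex (CTX), and the labels name no treatment. The labels name E12.5 and E14.5 embryos without an age for each sample, and the study's text places this assay at E12.5. H3K27me3, the trimethylated form of lysine 27 on histone H3, was profiled by CUT&Tag, in which an antibody directs a transposase to nucleosomes bearing the modification. Samples were merged within a region ahead of broad peak calling by the authors, so each region is 1 peak list, no value has a replicate error, and no difference between lists could be tested. Each library came from the nuclei of a whole dissected region, so a partly covered gene and a mixture of covered and uncovered cells cannot be told apart. The labels' protocol also states that nuclei of the regions were mixed in equal number, yet every sample names only 1 region.

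H3K27me3 is deposited by Polycomb repressive complex 2 and is known from silent developmental genes, where it often lies over CpG-rich sequence around the gene start. *Nr2f1* and *Nr2f2* encode the orphan nuclear receptors COUP-TFI and COUP-TFII, known for their high expression in CGE, and *Prox1* and *Sp8* mark many interneurons born there. The study places *Nr2f1* expression in MGE too. It describes *Nr2f2* as a progenitor marker of CGE and caudal MGE, although it also calls *Nr2f2* mRNA restricted to CGE. *Gsx1* and *Gsx2* are homeobox genes of ventral progenitors, with *Gsx2* strongest in LGE, and *Sp9*, *Ebf1* and *Meis2* are known for roles in the development of striatal projection neurons. None of this background was measured here.

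All 9 genes carried H3K27me3 peaks in all 4 regions, and the list with the least coverage differed from gene to gene. Coverage, the percentage of the window's bases under peaks, was lowest in CGE for *Nr2f1*, *Nr2f2* and *Sp9*, lowest in LGE for *Ebf1* and *Meis2*, lowest in CTX for *Prox1* and *Sp8*, and lowest in MGE for *Gsx1* and *Gsx2*. The widest contrasts were those of *Sp8*, at 40.1% in MGE and 17.1% in CTX, and *Gsx2*, at 42.3% in MGE and 61.8% in CTX.

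The sequences below are 300 bases each, from stretches that differed between lists and, for *Gsx2*, from a stretch covered in all 4. CpG dinucleotides are in capitals since CpG density is the sequence feature most tied to this modification. Each was read 5′ to 3′ on the strand of its gene from the RefSeq copy of GRCm38 (mm10), at the middle of the longest exon-free part of its stretch. *Nr2f1* is shown by a stretch upstream of the gene that lay under peaks in MGE, LGE and CTX but not CGE (chr13:78203601-78203900, minus strand), inside the opposite-strand RNA gene *A830082K12Rik*. *Nr2f2* is shown by a stretch upstream of its start that only the MGE list covered (chr7:70367039-70367338, minus strand), inside the opposite-strand RNA gene *B130024G19Rik*. *Sp8* is shown by intronic sequence covered in the 3 eminences and not in CTX (chr12:118846672-118846971, plus strand). *Gsx2* is shown by upstream sequence covered in all 4 lists (chr5:75074831-75075130, plus strand), for comparison with the variable stretches. *Ebf1* is shown by intronic sequence covered in MGE and CGE alone (chr11:44705227-44705526, plus strand). *Meis2* is shown by sequence upstream of the annotated start that was covered in MGE and CGE alone (chr2:116066684-116066983, minus strand), inside the RNA gene *2700033N17Rik*. Only upstream stretches were considered for *Meis2*, and a longer stretch covered in MGE and CGE alone, of 1929 bases, lay downstream of the gene.
Nr2f1: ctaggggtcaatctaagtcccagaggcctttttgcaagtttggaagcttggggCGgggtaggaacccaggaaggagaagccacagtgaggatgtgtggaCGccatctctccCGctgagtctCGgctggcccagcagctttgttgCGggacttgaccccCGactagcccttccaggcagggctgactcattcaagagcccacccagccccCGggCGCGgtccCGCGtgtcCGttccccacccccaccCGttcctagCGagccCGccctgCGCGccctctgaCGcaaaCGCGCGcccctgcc
Nr2f2: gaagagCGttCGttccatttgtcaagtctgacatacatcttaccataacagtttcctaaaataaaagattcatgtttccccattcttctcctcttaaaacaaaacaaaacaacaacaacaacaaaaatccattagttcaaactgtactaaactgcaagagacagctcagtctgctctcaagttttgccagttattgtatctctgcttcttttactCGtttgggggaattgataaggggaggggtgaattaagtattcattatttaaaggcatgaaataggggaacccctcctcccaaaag
Sp8: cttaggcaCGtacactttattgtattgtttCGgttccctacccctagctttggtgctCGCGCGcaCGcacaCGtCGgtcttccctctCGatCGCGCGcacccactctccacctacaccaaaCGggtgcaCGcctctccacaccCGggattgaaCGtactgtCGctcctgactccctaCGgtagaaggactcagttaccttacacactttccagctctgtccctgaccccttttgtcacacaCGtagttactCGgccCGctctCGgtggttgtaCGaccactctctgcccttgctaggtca
Gsx2: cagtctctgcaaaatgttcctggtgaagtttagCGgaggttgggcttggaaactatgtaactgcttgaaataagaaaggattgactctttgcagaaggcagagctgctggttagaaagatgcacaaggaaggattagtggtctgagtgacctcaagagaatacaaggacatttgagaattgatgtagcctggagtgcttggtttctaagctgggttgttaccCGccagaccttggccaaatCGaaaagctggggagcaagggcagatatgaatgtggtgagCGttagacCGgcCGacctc
Ebf1: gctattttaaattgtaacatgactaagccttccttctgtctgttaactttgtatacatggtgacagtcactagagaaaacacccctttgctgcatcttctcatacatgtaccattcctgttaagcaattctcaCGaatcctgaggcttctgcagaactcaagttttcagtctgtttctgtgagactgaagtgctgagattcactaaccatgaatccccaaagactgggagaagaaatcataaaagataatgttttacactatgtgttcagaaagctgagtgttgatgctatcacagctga
Meis2: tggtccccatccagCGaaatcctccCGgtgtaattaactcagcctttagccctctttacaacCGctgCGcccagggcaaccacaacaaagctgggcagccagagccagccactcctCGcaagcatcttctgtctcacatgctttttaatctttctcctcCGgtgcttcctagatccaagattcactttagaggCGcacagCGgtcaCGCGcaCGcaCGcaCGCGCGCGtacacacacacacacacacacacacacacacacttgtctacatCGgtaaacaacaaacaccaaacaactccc

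The shown stretches were unlike each other in base composition. CpG dinucleotides numbered 23 in *Sp8*, 21 in *Nr2f1* and 17 in *Meis2*, against 6 in *Gsx2*, 3 in *Nr2f2* and 1 in *Ebf1*. The median at the centres of all 28403 joined peak regions of the 4 lists was 5 per 300 bases, and the autosomes and X held 2.5. Across the 9 windows, bases covered in all 4 lists held 10.4 CpG per 300 bases, bases covered in 1 to 3 lists 5.54 and uncovered bases 3.15. The order was the same within 7 of the genes, and the exceptions were *Nr2f2*, with 7.27 in uncovered and 6 in partly shared bases, and *Sp9*, with 16.7 in partly shared and 12.9 in fully shared bases. Both strands were searched for TAATTA, a core bound by homeodomain proteins, AGGTCA, a half-site of nuclear receptors, and GGGCGG, a core bound by SP factors. TAATTA occurred in *Meis2* alone, AGGTCA once each in *Sp8* and *Gsx2*, and GGGCGG 2 times in *Nr2f1*. Of the joined peak centres 4.95% held TAATTA, 15.5% AGGTCA and 19.2% GGGCGG. A match of letters describes the sequence and is not a binding site.

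**Figure D1:**
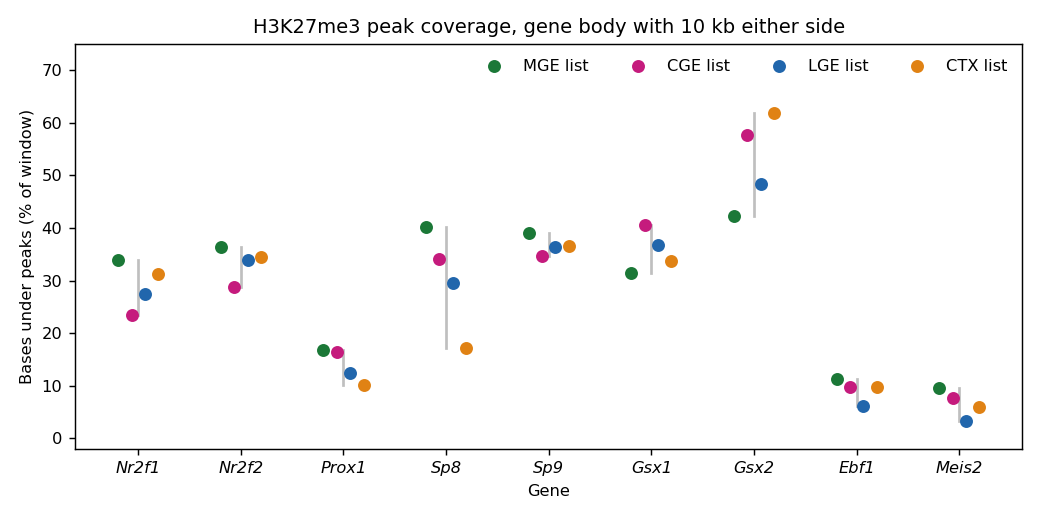
Percentage of each gene's window (gene body with 10 kb either side) under H3K27me3 peaks, with 1 point per gene and merged region list and a grey line from the lowest to the highest list. *Sp8* spans 17.1% to 40.1% and *Gsx2* 42.3% to 61.8%, while *Sp9* spans 34.7% to 39.1%.

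As a group the 9 genes were far more covered than most genes. Their median window coverage was 28.7% in CGE, 29.6% in LGE, 33.9% in MGE and 31.3% in CTX. Over all protein-coding genes the median was 0 in each list, and over the 12122 genes with a peak in at least 1 list it was 2.01% to 3.14%. *Nr2f1*, *Nr2f2*, *Sp9*, *Gsx1* and *Gsx2* lay between the 97.7 and the 99.9 percentile of all genes in every list, and *Meis2*, with a long body, went down to the 76.7 percentile in LGE. The lists themselves differ, from 15384 peaks over 24.5 Mb in MGE to 19196 peaks over 32.9 Mb in CGE, with 16851 peaks in LGE and 18785 in CTX. The depths in the study's methods have this order too, so depth and region cannot be told apart in list-wide differences. Despite being the shortest list, MGE held the most peaks in the 9 windows, 67, while CTX held 59, CGE 58 and LGE 57. This lead was not shared by all genes. MGE alone had the most peaks for *Ebf1* (26, next 23), *Meis2* (11, next 9) and *Gsx2* (5, others 4). For *Nr2f1*, *Nr2f2*, *Prox1*, *Sp8* and *Gsx1*, LGE held more peaks than MGE.

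MGE had the highest window coverage for 7 of the 9 genes, all but *Gsx1* and *Gsx2*. Among genes with a peak, MGE alone was highest for 13.3%, CGE for 42.6% and CTX for 30.1%. CGE was highest for *Gsx1* and CTX for *Gsx2*. Being highest in MGE was not particular to the members. Of the cortical markers read below, *Emx1*, *Emx2*, *Tbr1* and *Eomes* were highest in MGE as well, and *Neurod6* in CGE. Of 5 markers of all eminences, 4 were highest in CTX. With lists of equal covered bases, made by keeping the strongest peaks up to the total of MGE, MGE was still highest for 7 members, beside 24.9% of 10623 genes. At the other end, CGE was lowest for 3 members while it was lowest for 6.09% of genes with a peak. LGE was lowest for 2 (18.4% of genes), CTX for 2 (17.2%) and MGE for 2 (33.2%). Since 9 genes were chosen by name and the lists have no replicates, these shares are descriptions.

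A range of at least 10 percentage points between lists was reached by 3 of the 9 genes, *Nr2f1*, *Sp8* and *Gsx2*. That size of range occurred in 2.02% of all protein-coding genes and in 3.62% of those with a peak. The next ranges below it were 9.2 points for *Gsx1* and 7.71 for *Nr2f2*, and the range of *Nr2f1* was 10.6. Because a window with much coverage can also change by more points, the ratio of the highest to the lowest list was read as well. It reached 1.5 for 4 of the genes, *Prox1*, *Sp8*, *Ebf1* and *Meis2*, beside 53.6% of the genes with peaks in all 4 lists, a share larger than that of the members. *Prox1* no longer reached it when only peaks with q-values under 0.001 were kept.

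*Nr2f1* (ENSMUSG00000069171, chromosome 13, 78188973 to 78199757, minus strand) had 23.4% of its window covered in CGE, 27.5% in LGE, 33.9% in MGE and 31.3% in CTX. CGE was the lowest list, at −4.15 points from the next. The contrast sat upstream of the gene, where the 10 kb flank was covered over 31.1% in MGE, 30.4% in LGE and 19.9% in CTX and held no peak in CGE. In MGE and LGE a peak spanned −4.87 to −2.22 kb from the annotated start, and in CTX a shorter one spanned −4.86 to −3.13 kb. The CpG-dense *Nr2f1* sequence printed above comes from the 1734 bases common to these 3 peaks. A peak beginning in the outermost part of the flank and running on to about −12.5 kb was also present in all lists but CGE. Inside the gene, a peak at 3.79 to 5.54 kb in MGE was found in all 4 lists and was the strongest of the locus in each. Its −log10 q was 8.5 in CGE, 129 in LGE, 38.8 in MGE and 52.8 in CTX. It ranked at the 99.6 percentile of all LGE peaks and at the 64.1 percentile of the CGE list. By fold enrichment CGE, at 3.48, lay among the others, with 3.29 in MGE, 3.64 in CTX and 4.48 in LGE. None of the 4 lists had a covered base within 2 kb of the annotated start. Coverage was higher in MGE than in CGE by at least 10 points, which occurred in 0.0735% of genes. MGE was the highest list by 2.61 points, and LGE overtook it when peaks less than 3 kb apart were joined (−6.91 points) or with the gene body alone (−0.89 points), whereas CGE stayed lowest in all 8 settings.

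*Nr2f2* (ENSMUSG00000030551, chromosome 7, 70351944 to 70366735, minus strand) had the same lowest list, with 28.7% in CGE, 33.9% in LGE, 36.4% in MGE and 34.4% in CTX. The 4 lists held peaks in nearly the same places, and 64.2% of the bases covered in any list were covered in all. They parted at the gene start. The MGE peak ran from −4.5 kb across the start to 0.386 kb inside the gene, whereas those of CGE, LGE and CTX ended at −0.91, −0.904 and −0.897 kb. Within 2 kb either side of the start, coverage was therefore 59.7% in MGE and 27.3% to 27.6% in the other lists. The 1283 bases covered in MGE alone hold the CpG-poor *Nr2f2* sequence above. Within the gene body CGE had 20.4% against 31.7% in MGE, 34.4% in LGE and 33.9% in CTX, since its intragenic peak spanned 3014 bases against 4306, 5092 and 5009. CGE remained lowest in all 8 settings. The place of MGE as highest, by 2.01 points, was lost with joined peaks (−2.49 points), the body alone (−2.7 points) and 20 kb flanks (−1.12 points).

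*Prox1* (ENSMUSG00000010175, chromosome 1, 190118035 to 190170714, minus strand), which encodes a homeodomain protein kept on in many CGE-derived interneurons, had a different order. Coverage was 16.4% in CGE, 12.4% in LGE, 16.7% in MGE and 10.1% in CTX, and MGE and CGE differed by 0.36 points. Its dominant feature was shared, a peak of 3828 to 3924 bases that ended about −1.1 kb from the start in every list. That peak had a −log10 q of 104 in CGE, 110 in LGE, 43.1 in MGE and 66 in CTX, at or above the 96.2 percentile of each list. Accordingly the upstream flank was covered over 38.3% to 39.2% in all lists and the start window over 37.9% to 41.2%. The differences lay in the introns, with 16.9% covered in CGE, 9.36% in LGE, 17.5% in MGE and 6.67% in CTX. There the peak at 9.85 to 12 kb in MGE was shortened to 561 bases in CTX, and a peak of 1436 bases at 26.4 to 27.9 kb occurred in MGE only. The peaks at 9.85 kb and 26.4 kb in MGE were weak, at a −log10 q of 2.04 and 1.89, whereas the intronic peak beginning at 19.5 kb in MGE and 20.1 to 20.6 kb elsewhere reached 9.67 to 23.4. CTX was no longer lowest with q-values under 0.001 (0.435 points above the next) or with equal covered bases (0.0605 above). With q-values under 0.001 the lists lay close together, from 9.08% in LGE to 10.7% in MGE.

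*Sp8* (ENSMUSG00000048562, chromosome 12, 118846329 to 118852576, plus strand) encodes a zinc finger factor of dorsal LGE and CGE, and it showed the widest range, 23 points. Coverage went from 40.1% in MGE through 34.1% in CGE and 29.6% in LGE to 17.1% in CTX. All 3 eminences had a peak over the first part of the gene, from 0.05 kb in MGE, 0.092 kb in CGE and 0.097 kb in LGE to about 4.06 kb. In CTX the corresponding peak began only at 2.07 kb and was 1930 bases wide, against 3964 to 4016 bases in the eminences. The introns annotated in GENCODE, 1690 bases in all, were thus covered over 100% in MGE, CGE and LGE and had no covered base in CTX. RefSeq places exons of *Sp8* within these bases, such as 118847360 to 118847734, but none over the printed sequence. The *Sp8* sequence above, with 23 CpG dinucleotides in 300 bases, lies in this stretch. Downstream of the gene, coverage was 22.9% in MGE, 19.5% in CGE and 7.21% in LGE, and no CTX peak was called. Coverage of the start window was 47.7% in CGE, 47.6% in LGE, 57% in MGE and 0% in CTX. The strongest peak of the locus had a −log10 q of 77.3 in CGE, 79.5 in LGE, 35.9 in MGE and 15.4 in CTX, and ranked at the 79 percentile of the CTX list against 95 to 97.2 in the others. This was the peak over the gene in LGE, MGE and CTX, and the upstream peak beginning at −10.4 kb in CGE. Fold enrichment did not have the order of the q-values. At the peak over the gene it was 2.31 in CGE, 2.73 in LGE, 2.22 in MGE and 3.21 in CTX, and at the upstream CGE peak 3.24. MGE was over LGE by at least 10 points (a difference found in 0.207% of genes), and all 3 eminences were over CTX by that much (MGE 0.28%, CGE 0.676% and LGE 0.257% of genes). MGE stayed highest and CTX lowest in all 8 settings, and no other annotated gene lies in this window.

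*Sp9* (ENSMUSG00000068859, chromosome 2, 73271925 to 73284706, plus strand), the close relative of *Sp8*, varied least in points. Coverage was 34.7% in CGE, 36.4% in LGE, 39.1% in MGE and 36.5% in CTX, a range of 4.41 points. Each list had 3 peaks in the same places, and 80.6% of the covered bases were common to all. The peak over the start covered 91.5% to 95.2% of the start window, and it ended at 1.88 kb in CGE against 2.83 to 2.94 kb in the other lists. The strongest peak lay in the body in MGE and LGE and upstream in CGE and CTX. Its −log10 q was 55.7 in CGE, 52.2 in LGE, 18.6 in MGE and 58.2 in CTX. The 3′ end of *Cir1*, a gene on the other strand, overlaps the window, and leaving its bases out did not change which lists were lowest and highest. With the gene body alone MGE was at −1 point from the highest other list.

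**Figure D2:**
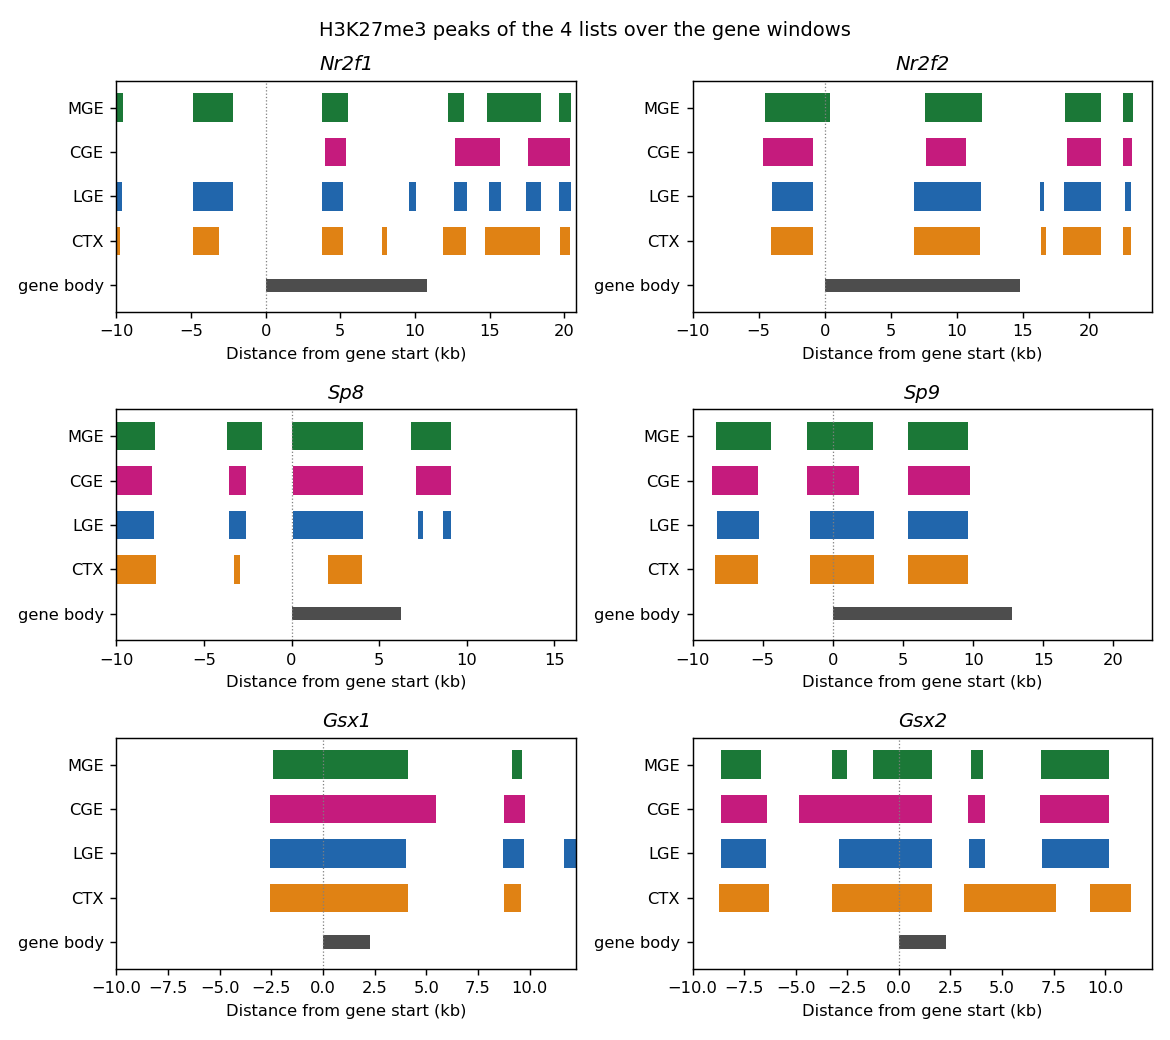
Positions of H3K27me3 peaks (coloured bars, 1 row per region list) against the gene body (grey bar) for the 6 genes with short bodies, in kb from the annotated start with transcription to the right. CGE lacks the peaks upstream of *Nr2f1*, the MGE peak crosses the start of *Nr2f2*, and the CTX peak of *Sp8* begins at 2.07 kb.

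*Gsx1* (ENSMUSG00000053129, chromosome 5, 147188696 to 147190947, plus strand) was fully covered, body and start window both at 100% in all 4 lists. A single broad peak held the gene, from −2.41 to 4.12 kb in MGE, −2.54 to 4.01 kb in LGE and −2.56 to 4.12 kb in CTX. The CGE peak was wider, 8039 bases, and reached 5.48 kb. Window coverage was 40.6% in CGE, 36.8% in LGE, 31.4% in MGE and 33.7% in CTX. The difference lay downstream, where 42.3% of the flank lay under peaks in CGE, 33.9% in LGE, 23.3% in MGE and 26.8% in CTX. Farther out, 10 to 50 kb from the gene, CGE again had the most, with 19.2%, followed by LGE with 12.6%, CTX with 12.3% and MGE with 5.32%. The peak over the gene ranked at the 82 to 86.3 percentile of its list. CGE lost its place as highest with joined peaks (−4.8 points), and MGE its place as lowest with equal covered bases (1.39 above). With the gene body alone the 4 lists were tied.

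*Gsx2* (ENSMUSG00000035946, chromosome 5, 75075601 to 75077893, plus strand) had the highest coverage of the 9 genes in every list, 57.7% in CGE, 48.4% in LGE, 42.3% in MGE and 61.8% in CTX. The peak over its start was common to all lists to 1.61 kb inside the gene, and the body was covered over 70.2% to 70.8%. Upstream of the start this peak differed in length, beginning at −1.24 kb in MGE, −2.88 kb in LGE, −3.26 kb in CTX and −4.84 kb in CGE. MGE lacked 1297 bases there that the 3 other lists covered. Its start window was covered over 71.2% in MGE and 90.2% to 90.6% in the other lists. Downstream, 64.5% of the flank was covered in CTX and 39.1% to 41.9% in the eminences, and 2651 bases between 4.19 and 6.84 kb were covered in CTX alone. The *Gsx2* peaks were of moderate strength, with the strongest at a −log10 q of 20 in CGE, 15.9 in LGE, 11.3 in MGE and 39 in CTX. CGE was over MGE by at least 10 points (0.795% of genes), CTX was over MGE (0.529%) and CTX was over LGE (0.308%). With peaks less than 3 kb apart joined, MGE stood 0.453 points from the lowest other list and CTX −8.16 points from the highest, so the order of this gene depended on gaps between peaks. In the 7 other settings CTX was highest and MGE lowest, except that MGE and LGE were tied with the gene body alone.

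*Ebf1* (ENSMUSG00000057098, chromosome 11, 44617317 to 45008091, plus strand) encodes a helix-loop-helix factor of striatal neurons born in LGE, and LGE was its lowest list. Coverage was 9.8% in CGE, 6.23% in LGE, 11.3% in MGE and 9.75% in CTX. In absolute terms, peaks covered 40.3 kb in CGE, 25.6 kb in LGE, 46.3 kb in MGE and 40 kb in CTX. The window held 23 peaks in CGE, 17 in LGE, 26 in MGE and 22 in CTX. The long introns carried most of the difference, covered over 8.8% in CGE, 5.35% in LGE, 10.1% in MGE and 8.74% in CTX. No LGE peak was called between 49.1 and 124 kb from the start, where a peak shared by all lists lay. In that span MGE had peaks beginning at 61.7, 64, 67.2, 70.7, 79.4, 86.7 and 121 kb, CGE at 64.2, 67, 79.4, 86.9 and 121 kb, and CTX, with peaks of 380 to 592 bases, at 66.9, 68.8, 80 and 121 kb. Many of them were weak, with a −log10 q of 2.62 to 8.36 in MGE, 1.83 to 5.37 in CGE and 1.47 to 5.86 in CTX. A missing call in LGE therefore does not show that the modification was absent there. The CpG-poor *Ebf1* sequence above comes from the peak at 86.7 kb in MGE and 86.9 kb in CGE, which was weak, at a −log10 q of 3.29 in MGE and 1.83 in CGE. In all, 5129 bases were covered in the 3 other lists and not in LGE. Near the start MGE and CTX had 1 continuous peak, from −5.98 and −6.04 kb to −0.138 and −0.179 kb, which was broken into 2 peaks in CGE and LGE. Coverage of the start window was accordingly 19% in CGE, 14.4% in LGE, 51.4% in MGE and 49.8% in CTX. The strongest peak ranked between the 94.1 and 96.3 percentile in every list.

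*Meis2* (ENSMUSG00000027210, chromosome 2, 115863064 to 116065839, minus strand) encodes a homeodomain partner of Hox and Pbx proteins, abundant in LGE. LGE was again lowest, with 7.73% in CGE, 3.3% in LGE, 9.48% in MGE and 5.92% in CTX, and the ratio of MGE to LGE, 2.88, was the largest of the 9 genes. Peaks numbered 9 in CGE, 5 in LGE, 11 in MGE and 8 in CTX, over 17.2, 7.34, 21.1 and 13.2 kb in the same order. A pair of intronic peaks near 44.6 and 55.3 kb in MGE was found in CGE and CTX as well and was not called in LGE. Their −log10 q was modest, at 7.67 and 6.07 in MGE, 4.7 and 4.37 in CGE, and 3.45 and 4.24 in CTX. Upstream, 38.4% of the flank was covered in MGE, 33.2% in CGE, 24.6% in CTX and 7.03% in LGE. One peak there, at −2.12 to −0.729 kb in MGE, occurred in MGE and CGE alone, with a −log10 q of 5.06 and 2.47. Together with an intragenic peak that began at 1.23 kb in MGE and 1.22 kb in CGE, but at 2.37 kb in LGE and 2.45 kb in CTX, it gave start windows covered over 51% in MGE and 51% in CGE, against no covered base in LGE and CTX. RefSeq places first exons of *Meis2* inside this stretch (116067125 to 116067537), upstream of the start used here. The strongest peak by q-value was not the same peak in every list. MGE and CTX had it upstream, at −7.25 kb (−log10 q 20.4 and 20), CGE and LGE downstream, near 211 kb (20.3 and 11.7). Both peaks were called in all 4 lists. LGE had the lowest −log10 q at each, 11.7 against 16.8 to 20.3 downstream and 3.62 against 11.2 to 20.4 upstream. Since q-values depend on depth, this order does not compare strength between lists. Fold enrichment over local background was highest in LGE downstream, 3.02 against 2.42 to 2.63. Upstream LGE, at 2.49, lay among the others, which had 2.28 to 2.78. For *Ebf1* and *Meis2*, LGE was lowest and MGE highest in all 8 settings. The margin of LGE under the next list shrank for *Ebf1* with equal covered bases, from −3.52 to −1.33 points. For *Meis2* it went from −2.62 to −2.46 points. LGE was likewise lowest for 4 of 5 marker genes shared by the eminences, and the part of such list-wide differences in these values was not tested.

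**Figure D3:**
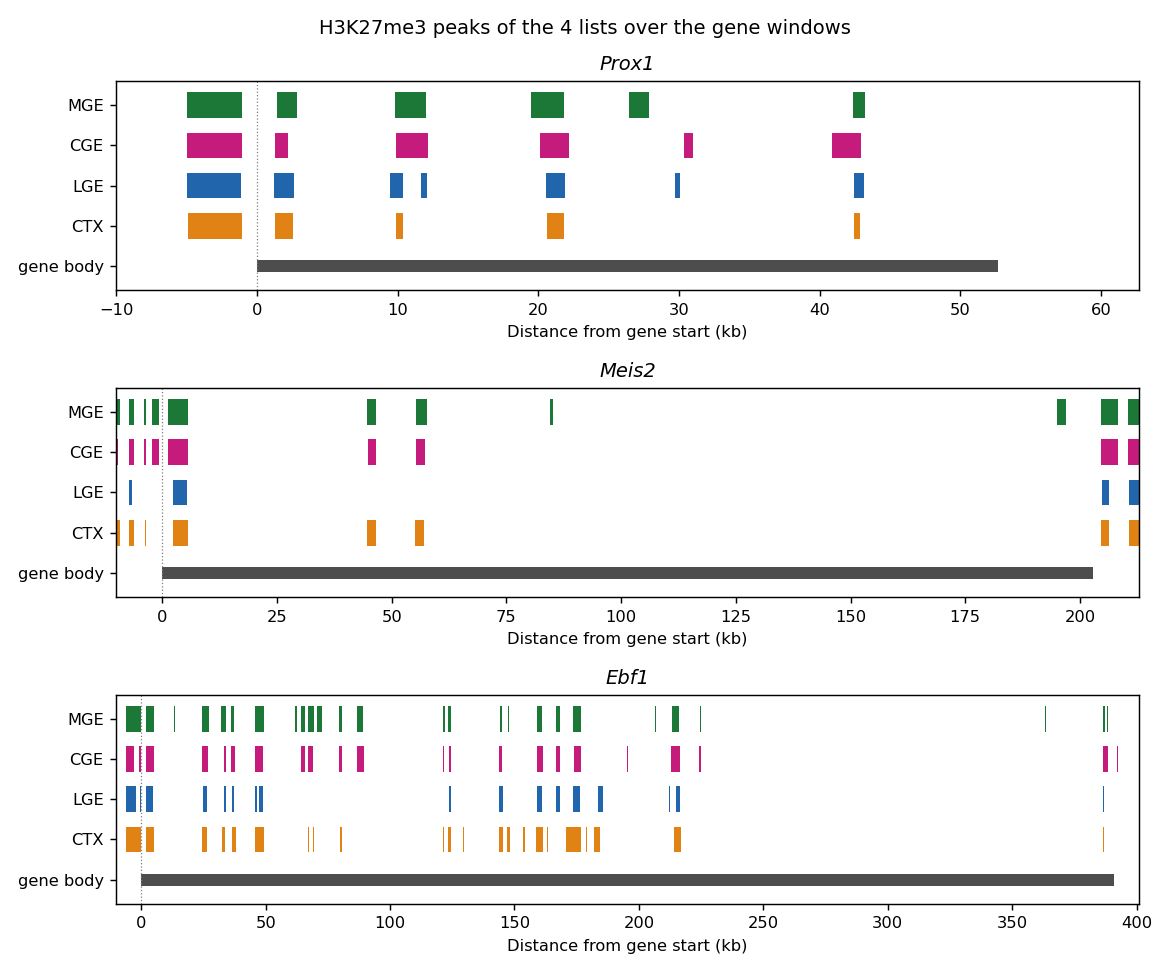
Positions of H3K27me3 peaks (coloured bars, 1 row per region list) against the gene body (grey bar) for *Prox1*, *Meis2* and *Ebf1*, in kb from the annotated start with transcription to the right. In LGE the *Meis2* peaks near 44.6 and 55.3 kb were not called, nor was any *Ebf1* peak between 49.1 and 124 kb. Many of the peaks called there in the other lists were weak.

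Gene starts were compared separately, as the place where this modification is most often read. At least 50% of the 4 kb around the start was covered for 4 of the 9 genes in CGE, 3 in LGE, 7 in MGE and 3 in CTX. The shares of all protein-coding genes were 12.3% in CGE, 10.2% in LGE, 9.76% in MGE and 10.9% in CTX. *Sp9*, *Gsx1* and *Gsx2* passed in every list. *Nr2f2* and *Sp8* passed in MGE alone, *Ebf1* in MGE at 51.4% with CTX just short at 49.8%, and *Meis2* in MGE and CGE, both at 51%. *Sp8* in CGE (47.7%) and LGE (47.6%) was also just under the limit, so the count of 7 against 3 or 4 leans on small differences for *Ebf1*, *Meis2* and *Sp8*. With joined peaks the CGE, LGE and CTX counts were 7, 6 and 5. Counting the start of any annotated transcript gave 7 genes in each eminence and 6 in CTX, so that MGE then had no more than CGE and LGE.

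**Figure D4:**
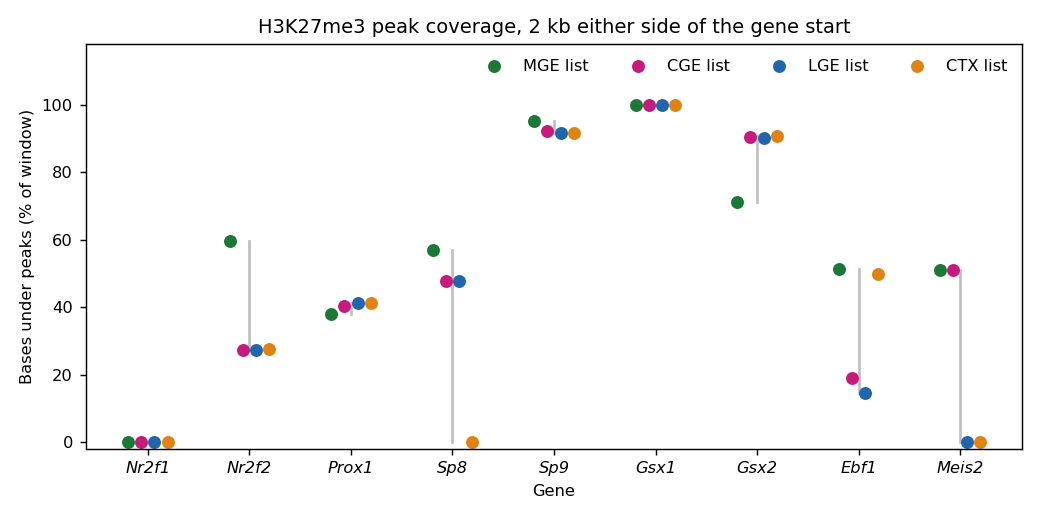
Percentage of the 2 kb either side of the annotated gene start under H3K27me3 peaks, with 1 point per gene and region list and a grey line from the lowest to the highest list. *Gsx1* is at 100% and *Nr2f1* at 0% in all lists, whereas *Sp8* is at 0% in CTX only and *Meis2* at 0% in LGE and CTX.

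Peak strength was set against the other peaks of the same list, because q-values depend on depth and are not comparable between lists, and ranks in lists of unequal depth share part of that limit. The strongest peak of *Prox1* and that of *Ebf1* ranked at or above the 94.1 percentile everywhere. The gene whose rank moved most was *Nr2f1*, at the 64.1 percentile in CGE and between 94.1 and 99.6 in the other lists. For *Nr2f2* the lowest rank was also in CGE, at 82.9 against 93.1 to 96.7. *Sp8* ranked lowest in CTX and *Meis2* in LGE, the lists in which each also had the least coverage. The opposite held for *Gsx1*, lowest in rank in CGE at 82, and *Sp9*, lowest in rank in MGE at 85.8, each in its most covered list. *Ebf1* ranked lowest in CTX and not in LGE. Fold enrichment did not follow the ranks for *Nr2f1*, *Sp8* and *Meis2*, as given with each gene. *Gsx2* ranked highest in CTX, at 90.6 against 77.2 to 78.

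**Figure D5:**
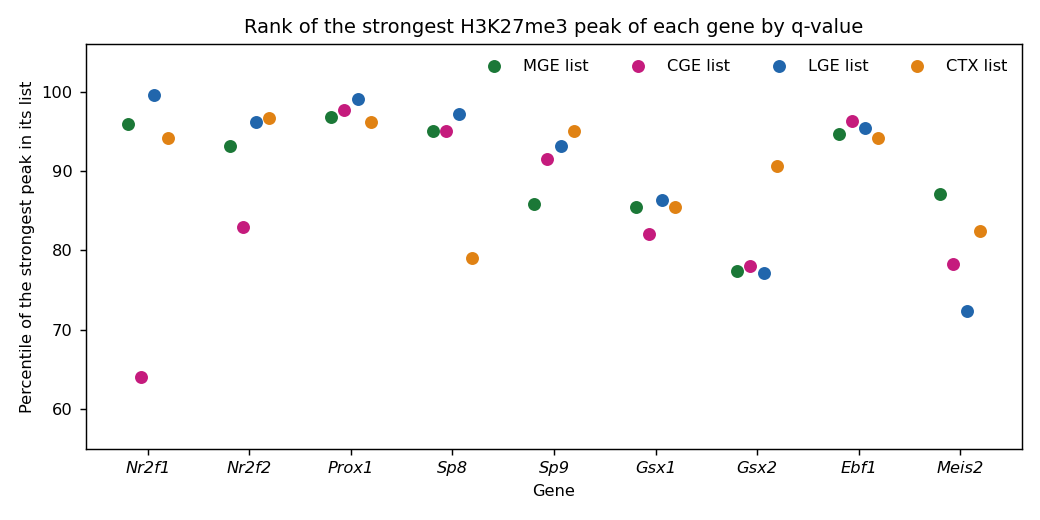
Percentile, among all peaks of the same region list ordered by q-value, of the strongest H3K27me3 peak in each gene's window, with 1 point per gene and region list and a vertical axis that starts above 0. The lowest point is *Nr2f1* in CGE at the 64.1 percentile, and *Sp8* in CTX is at the 79 percentile.

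Bases covered in any list over the 9 windows came to 178 kb. Of these 42.4% were covered in all 4 lists, 16.2% in 3, 16.3% in 2 and 25.2% in 1, against 39.1%, 13.3%, 14.6% and 33% over the windows of all protein-coding genes. Sharing was lowest for *Nr2f1* (28.7% in all lists) and *Ebf1* (30.8%), and highest for *Sp9* (80.6%) and *Gsx1* (70.6%).

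Relatives of the members were read the same way, 18 genes of the Nr2f, Prox, Sp, Ebf and Meis families and homeobox genes related to Gsx. Of these, 16 had a peak and 3 ranged over at least 10 points, with medians between 6.72% in MGE and 8.99% in CGE. *Ebf3* had 28.7% in CGE, 23.8% in LGE, 19.4% in MGE and 31.5% in CTX, so unlike *Ebf1* it was lowest in MGE. *Cdx2*, a gut homeobox gene, had 48.3% in LGE and 59.4% to 60.6% elsewhere, and *Sp7*, an osteoblast factor, had 17.6% in CTX and 25.8% to 27.7% in the eminences. *Meis1* was highest in CTX (16.3%) and lay between 9.14% and 10.1% in the eminences.

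A list of 20 genes of the CGE and LGE lineages was examined as well. Of these, 18 had a peak, 4 ranged over at least 10 points, and medians were 6.9% in CGE, 3.23% in LGE, 4.05% in MGE and 3.59% in CTX. *Htr3a*, the serotonin receptor gene of CGE-derived interneurons, had 17.6% in CGE, 14.5% in LGE, 6.89% in MGE and no peak in CTX. *Foxp4*, a forkhead gene, had 28% in CGE against 14.2% to 17.4%. *Npas1* went from 9.16% in MGE to 20.5% in CTX. *Isl1*, a LIM homeobox gene of striatal neurons, was lowest in CGE at 34.6% and highest in MGE at 44.4%.

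Genes with the profile most like the 2 members of widest range were found by the Euclidean distance of the 4 coverages. Nearest to *Sp8* were *Otx1* (3.76 points away), *Tfap2c* (5.93) and *Nfix* (9.09), each lowest in CTX. Nearest to *Gsx2* were *Dbx1* (9.25), *Skor1* (10.6) and *Nkx3-2* (11.6), each between 53.1% and 55.1% in CGE and CTX. None of them was both lowest in MGE and highest in CTX as *Gsx2* was. *Skor1* (44.6%) and *Nkx3-2* (43.7%) were lowest in LGE, and *Dbx1* was highest in CGE.

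The region labels were checked with marker genes. Of 5 cortical markers, 4 (*Emx1*, *Emx2*, *Neurod6* and *Eomes*) were lowest in CTX, with *Emx2* at 19.3% against 36.3% to 46.2%. The margin was small for *Neurod6* (4.33% against 4.68% in LGE) and *Eomes* (41.3% against 41.9% in LGE). The fifth, *Tbr1*, had 22.8% in CTX and was lowest in LGE at 17.3%. CTX was lowest for 17.2% of genes with a peak. Of 3 MGE markers, *Nkx2-1* was lowest in MGE at 42.7% against 50.3% to 54.3%, and *Lhx6* and *Lhx8* were lowest in LGE. *Lhx8* had 19.4% in MGE, above 19% in CGE and 16.6% in LGE. MGE was lowest for 33.2% of genes with a peak, so 1 of 3 markers is no more than that share. Of 5 markers of all eminences, 4 were highest in CTX and 4 were lowest in LGE, beside 30.1% and 18.4% of genes with a peak. The CTX margins over the next list, CGE, were small. They were 56.4% against 56.3% for *Dlx1*, 49.1% against 48.6% for *Dlx2* and 5.92% against 5.15% for *Gad2*. *Gad1* had 13.4% in CTX against 13.2% in both MGE and CGE.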

How the data were processed

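H3K27me3 CUT&Tag peak lists of MGE, CGE, LGE and CTX were analysed. The authors aligned reads to GRCm38 (mm10) with Bowtie2, removed blacklisted regions and Picard duplicates, combined replicates by region in samtools and called broad peaks with MACS, whose version and control are not given in the sources used here. The deposited lists hold, for each peak, a fold enrichment (a ratio over local background) and a −log10 q-value as MACS wrote them, which served to describe or order peaks inside their own list. The lists used hold no reads per peak, so no counting error is given. The study's methods state library depths, which are not used as values here. Summed by region they have the order of the peak counts, most in CGE, then CTX, LGE and MGE, so depth and region cannot be told apart. The study describes 2 biological replicates a region, and in CGE, LGE and CTX 2 of 3 samples carry the same replicate number and may be libraries of 1 replicate.

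Coverage was computed with Python 3.11.15 and numpy 2.4.6 on chromosomes 1 to 19 and X (20 chromosomes), with gene positions from GENCODE M21, and the code was tested on simulated data. The gene start was the 5′ end of the gene. Coordinates count from 1. Members and lists were chosen with earlier results of these data known. All 9 members were named. Relatives and lineage genes were named where coverage ranged over at least 10 points, at most 6 a list, except 1 lineage gene that entered the counts and is not reported here, and *Meis1*, *Isl1* and the markers' values were added after they were seen. No test was run, since each region is 1 list. Other settings tried were q-values under 0.001, peaks under 3 kb apart joined, equal numbers of strongest peaks, equal covered bases, other windows, limits and starts, and other protein-coding genes left out. Of 14 RefSeq promoters of the members, 14 had the same sequence in the genome used. GENCODE lists 1 other protein-coding gene in the 9 windows, and reads carry no strand, so signal over overlapping RNA genes on either strand cannot be told apart.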

Additional observations from a re-analysis of the deposited data

How the results depend on the processing

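The lists have no replicates, so a value was taken as stable when it stayed within 1.5 times of the one reported. No paired analysis was possible because the replicates of each region were merged before peaks were called, and for the same reason no sample could be left out in turn. The 3 members with a range of at least 10 points became 5 with peaks joined over 3 kb, 5 with 5 kb flanks, 8 at a limit of 5 points and 1 at 20 points. The 8 pairwise differences became 15, 14, 23 and 1 under the same settings and 3 with 20 kb flanks. Median coverage moved with 20 kb flanks, to 22.3% in MGE, 19.6% in LGE and 18.5% in CTX. Covered gene starts numbered 2 in MGE at a limit of 80%. With joined peaks, any 1 base, or the start of any transcript they numbered 7, 8 and 7 in CGE, 6, 7 and 7 in LGE, and 5, 6 and 6 in CTX, which had 5 with the upstream 2 kb alone. Orders that turned, in points of MGE minus the highest other list, were *Nr2f1* with joined peaks (−6.91) and the body alone (−0.89), *Nr2f2* with these (−2.49 and −2.7) and with 20 kb flanks (−1.12), *Prox1* with 20 kb flanks (−0.548) and *Sp9* with the body alone (−1). *Prox1* in CTX lay above the lowest other list with q-values under 0.001 (0.435) and equal covered bases (0.0605), as did *Gsx1* in MGE with equal covered bases (1.39) and *Gsx2* in MGE with joined peaks (0.453). With joined peaks *Gsx1* in CGE (−4.8) and *Gsx2* in CTX (−8.16) lay under the highest other list. Joining closes gaps within a list by construction. The causes of the other changes were not tested. The ratio of 1.5 between lists was a measure chosen after seeing the data. It was reached by 4 to 6 members in the settings tried, which were not always the same genes. With q-values under 0.001 the count was again 4, but *Prox1* fell short of the ratio and *Gsx2* (39.1% in MGE, 61.8% in CTX) reached it.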

Other observations

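Beyond the windows, between 10 and 50 kb from the gene, *Nr2f2* kept 13.7% to 16.9% of its bases under peaks and *Nr2f1* 5.87% in CGE, 10.5% in LGE, 11.4% in MGE and 8.32% in CTX, with CGE lowest as in the window. *Sp9* and *Ebf1* had none in this outer part, and the median over the 9 genes was 1.83% to 2.16%, against 0 for all protein-coding genes.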
